A study of Schizosaccharomyces pombe with 22 samples.

Results

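The 10 genes described here make amino acids or nucleotides in the fission yeast Schizosaccharomyces pombe. They were chosen by name, as leu1, leu2, leu3, his3, his7, lys1, pro3, ade6, hpt1 and ura4, and each had 1 open reading frame (ORF) probe among 4716 ORF probe names present on all 10 expression arrays. All 10 were among the 4527 genes tested, and 9 of them, all but hpt1, also had a probe for an intergenic region (IGR) named after the gene, among 4941 regions. The series holds 22 samples. For 2 of them RNA came from a strain called pst3nmt Hu1505 and labelled as repressed, the name pointing to the thiamine-repressible nmt promoter, and for 8 from wild type. A pair of arrays held DNA precipitated with green fluorescent protein-tagged Pst3 (Pst3-GFP) beside wild-type input, 4 samples came from a Pst3-GFP experiment with beads, and 6 came from histone H3 precipitations in strains called hst2D and hst4D and in wild type (wt), 1 per strain and probe set. Pst3 is a homolog of Sin3, the scaffold of histone deacetylase complexes. The labels give no marker genotype, growth medium or culture for any sample, so a difference between strains in these genes cannot be told apart from a difference in marker alleles or medium. Separate cultures are not stated for the arrays of any group, and p-values therefore measure only the spread between arrays, which may be technical. Titles of the wild-type arrays carry codes that recur in pairs, with no stated meaning, so some of these arrays may share an RNA sample.

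Amino acid synthesis in yeasts is commonly adjusted to supply, and the genes of a pathway can be raised together when the cell is starved of an amino acid. Purine nucleotides are made either from small precursors or by salvage of free bases, and salvage spares the longer route. Several of these genes are also the usual selection markers of fission yeast strains, in which a mutated copy in the strain is complemented by a working copy or by the nutrient in the medium. Deletions, point mutations and inserted copies of a marker can each change what an array probe measures.

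The stretches before leu2, hpt1 and pro3 are shown because the expression or Pst3-GFP comparison turned on these 3 genes. Each runs 5′ to 3′ over the 250 bases before the annotated start of the gene in the RefSeq assembly ASM294v3. The leu2 stretch is chrI:4439605-4439854 on the plus strand, the hpt1 stretch is chrI:2156518-2156767 on the minus strand, and the pro3 stretch is chrI:4752461-4752710 on the plus strand. No other annotated gene overlapped those of leu2 and hpt1, and 1 non-coding RNA gene overlapped that of pro3.
leu2: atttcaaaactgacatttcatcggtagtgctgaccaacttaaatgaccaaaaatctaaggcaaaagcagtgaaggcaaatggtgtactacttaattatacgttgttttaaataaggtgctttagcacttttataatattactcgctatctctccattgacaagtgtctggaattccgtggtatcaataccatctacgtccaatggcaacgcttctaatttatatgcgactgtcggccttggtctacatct
hpt1: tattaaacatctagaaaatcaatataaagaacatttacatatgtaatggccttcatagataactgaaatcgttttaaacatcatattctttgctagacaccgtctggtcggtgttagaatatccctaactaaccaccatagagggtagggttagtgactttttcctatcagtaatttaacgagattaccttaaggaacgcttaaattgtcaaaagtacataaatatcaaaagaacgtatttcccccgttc
pro3: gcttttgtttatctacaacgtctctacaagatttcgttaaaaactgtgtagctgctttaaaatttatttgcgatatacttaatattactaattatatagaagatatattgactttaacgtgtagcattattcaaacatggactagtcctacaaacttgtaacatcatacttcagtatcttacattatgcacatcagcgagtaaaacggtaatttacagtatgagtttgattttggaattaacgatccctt
A search of both strands for TGACTC, the core of the site of the budding yeast amino acid regulator Gcn4, and for GATAAG, the core of the site of GATA factors of nitrogen control, found neither in these 3 stretches, so no base is in capitals. Over all 10 genes TGACTC was present before 2, leu3 and his7, and GATAAG before 0, while 5.63% and 10.2% of the same windows of 5112 protein-coding genes held them. The leu2 gene spans 4439855 to 4442513 of chromosome I, hpt1 2155374 to 2156517 and pro3 4752711 to 4753912. The positions of the probes within genes and intergenic regions, and the build used to design them, are not stated in the labels or files.

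Values below are log2 levels of background-corrected and quantile-normalised intensity unless another scale is named, and levels of different probes are not compared. Median net ORF signals per array (signal minus local background) ran from 1539 to 3793 on the arrays labelled pst3 repressed and from 402 to 3836 on wild-type arrays. The pst3 probe, the check of the label, differed by -0.07 (SE 0.39, limma adjusted p = 0.940), so the labelled repression was not seen in this probe. Prints (batches of spotted slides) were inferred from the array platform under which an array's values were deposited, not from a label. By this, the arrays labelled pst3 repressed lay on a print of their own, wild-type replicates 1 to 5 on another, and replicates 6 to 8 on one more. A print effect and an effect of the strain can therefore not be told apart, and the difference between the wild-type prints is given beside the members. None of the 10 probes lay among the 192 names whose places appeared exchanged on the pst3 repressed print.

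Of the 10 genes, leu2 and hpt1 were lower on the arrays labelled pst3 repressed, set against wild type, and the other 8 did not pass the test. The leucine gene leu2 differed by -3.80 and the purine salvage gene hpt1 by -3.71 on the log2 scale (2 against 8 arrays), and both sizes rest on signals near those of empty or control spots on at least 1 of the 2 arrays. No member was called higher, although leu1, his3 and ura4 had both pst3 repressed arrays above all 8 wild-type arrays. Over all genes tested, limma with Benjamini-Hochberg adjustment at 0.05 called 4.57% higher and 4.9% lower. All wild-type arrays were exceeded by both pst3 repressed arrays for 12.7% of genes, and both were under them all for 10.7%, against 3 and 2 of the 10 members. The median difference of the 10 genes was 0.06, and that of all genes tested was -0.03.

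**Figure D1:**
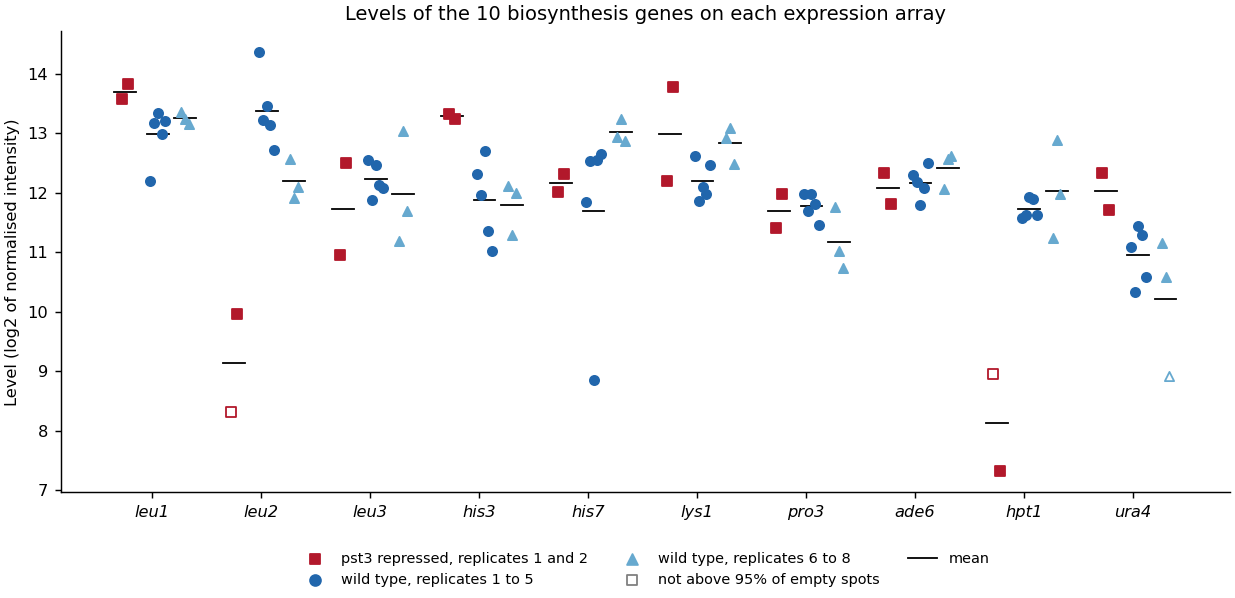
Log2 levels of the 10 genes (x axis) on each expression array, as squares for the 2 arrays labelled pst3 repressed, circles for wild-type replicates 1 to 5 and triangles for replicates 6 to 8. Bars mark means and open symbols mark arrays on which the net signal was not above the 95th percentile of empty spots. The squares of leu2 and hpt1 lie below all their wild-type points, while those of leu1, his3 and ura4 lie above theirs.

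The leucine pathway runs from leu3, 2-isopropylmalate synthase, through leu2, 3-isopropylmalate dehydratase, to leu1, 3-isopropylmalate dehydrogenase. The level of leu2 was 8.32 and 9.96 on the arrays labelled pst3 repressed, against a lowest of 11.91, a median of 12.93 and a highest of 14.36 on the 8 wild-type arrays. Both pst3 repressed arrays lay below every wild-type array, and replicate 1 was the lower of them. The leu2 level differed by -3.80 (SE 0.61, limma adjusted p = 0.00288). In net signal, leu2 gave 439 and 3214 on the pst3 repressed arrays, against 2897 to 19390 on wild-type arrays. The 439 of replicate 1 was below the 95th percentile of empty spots there (845), so leu2 was measured above empty spots on only 1 of the 2 arrays labelled pst3 repressed. With replicate 1 left out, leu2 no longer passed (-2.98, limma adjusted p = 0.106).

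The neighbours of leu2 in the leucine pathway did not pass the test. The level of leu3 was 10.95 and 12.50 on the arrays labelled pst3 repressed, against a lowest of 11.18, a median of 12.11 and a highest of 13.04 in wild type, and its groups overlapped because the first of these arrays lay below and the other within the wild-type range. The leu3 difference was -0.41 (SE 0.52, limma adjusted p = 0.682). The level of leu1, a common strain marker, was 13.57 and 13.83 on the pst3 repressed arrays, against a lowest of 12.20, a median of 13.19 and a highest of 13.35 in wild type. All pst3 repressed values of leu1 were above all wild-type values, with a difference of 0.62 (SE 0.39, limma adjusted p = 0.361). Wild-type arrays of leu1 were close together except replicate 1 at 12.20, the next lowest being at 12.99. Replicate 1 had 1 leu1 spot, against 4 on each other wild-type array.

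Within the genome, leu2 had 8 tested neighbours among the 5 genes on either side, and 1 of them was called lower. This was SPAC9E9.04, the next gene on the chromosome (4443030 to 4444196), with a difference of -3.34 (limma adjusted p = 0.0204), named here after its value was seen. The other 7 tested neighbours of leu2 were not called, and their values ran from -1.41 for SPAC16.04 to 1.66 for SPAC9E9.01. None of the 10 tested neighbours of hpt1 was called. Over all members 83 such neighbours were tested, of which 2 were called lower and 2 higher. Among all genes tested, 4.57% were called higher and 4.9% lower. The uncalled members leu1, ura4 and ade6 each had 1 called neighbour too, that of leu1 being lower (SPBC1E8.03C, -2.55) and the others higher. Within 10 places of leu2 in the deposited spot order of its block, control spots left out, probes had a median difference of -0.28 over 18 genes. Those around hpt1 had one of -0.18 over 19 genes. The lowest was -1.67 near leu2 and -2.33 near hpt1. Positions on the slide itself were not used.

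Of the purine genes hpt1 was lower and ade6 was not called. The salvage gene hpt1, a phosphoribosyltransferase that turns the free bases hypoxanthine, xanthine and guanine into nucleotides, had levels of 8.96 and 7.32 on the arrays labelled pst3 repressed. Its lowest, median and highest wild-type levels were 11.24, 11.77 and 12.90. Both pst3 repressed values lay below all wild-type ones, the lower of them on replicate 2, and it differed by -3.71 (SE 0.49, limma adjusted p = 0.000652). The net signal of hpt1 was 758 and 154 on the pst3 repressed arrays, against 1968 to 8394 on wild-type arrays. The 758 was below the 95th percentile of empty spots on its array (845), and the 154 lay above that limit on replicate 2 (4.5) but below the medians of the Escherichia coli control spots there (371 to 955). The hpt1 signal was thus within the range of empty spots on replicate 1, and on replicate 2 above empty spots but below the Escherichia coli spots. Luciferase control spots on replicate 2 were brighter, with a median of 10002.5. Leaving out either pst3 repressed array kept the call, with -4.53 without replicate 1 and -2.89 without replicate 2, and with the local background subtracted hpt1 differed by -5.47.

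The synthesis gene ade6, phosphoribosylaminoimidazole carboxylase, whose mutants turn red, did not pass. Its level was 12.33 and 11.82 on the arrays labelled pst3 repressed, against a lowest of 11.79, a median of 12.24 and a highest of 12.61 in wild type. The groups overlapped, with a difference of -0.19 (SE 0.37, limma adjusted p = 0.804). The wild-type SD of ade6 (0.29) was smaller than that of all but 2.74% of genes tested, against a median SD of 0.67.

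The pyrimidine gene ura4, orotidine 5′-phosphate decarboxylase and a widely used marker, was at 12.33 and 11.72 on the arrays labelled pst3 repressed. Its wild-type arrays had a lowest level of 8.92, a median of 10.84 and a highest of 11.45. Both pst3 repressed arrays lay above all wild-type arrays, but the difference of 1.35 (SE 0.57) did not pass (limma adjusted p = 0.159). The lowest wild-type array of ura4, replicate 8, had a net signal of 2542, below the 95th percentile of empty spots on that array (3298). With flagged spots left out and arrays centred on their medians, a setting added after seeing the data, ura4 passed at 1.67 (limma adjusted p = 0.0430). Further probes named SP_LEU1 and SP_URA4 were on the wild-type prints only, SP_LEU1 on 8 arrays and SP_URA4 on 5. They give no comparison with the pst3 repressed arrays. On wild-type replicate 1, where leu1 was lowest, the net signal of leu1 was 0.55 times that of SP_LEU1. This ratio was the lowest of the 8 arrays, against a median of 1.29, so SP_LEU1 did not share the low leu1 value there.

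The histidine genes his3, histidinol-phosphate aminotransferase, and his7, which acts at earlier steps of the same pathway, did not pass the test. The level of his3 was 13.32 and 13.25 on the arrays labelled pst3 repressed, against a lowest of 11.02, a median of 11.98 and a highest of 12.70 in wild type. All pst3 repressed values of his3 were above all wild-type values, with a difference of 1.44 (SE 0.46, limma adjusted p = 0.0652). It passed in 3 of 21 alternative settings, among them without wild-type replicate 3 (1.56, limma adjusted p = 0.0329).

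The level of his7 was 12.01 and 12.32 on the pst3 repressed arrays, against a lowest of 8.85, a median of 12.60 and a highest of 13.25 in wild type. The groups overlapped only through wild-type replicates 1 and 3, since the other 6 wild-type arrays were all higher, and his7 differed by -0.02 (SE 0.87, limma adjusted p = 0.991). The 8.85 came from replicate 3, on which all 4 his7 spots carried a flag, and it gave his7 a wild-type SD of 1.41, larger than that of 94.7% of genes tested. Without that array the difference of his7 was -0.50, and it did not pass.

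The lysine gene lys1, alpha-aminoadipate reductase, and the proline gene pro3, pyrroline-5-carboxylate reductase, did not pass either. The level of lys1 was 12.20 and 13.77 on the arrays labelled pst3 repressed, against a lowest of 11.87, a median of 12.48 and a highest of 13.09 in wild type. The pst3 repressed arrays of lys1 lay further apart than the whole wild-type range of 1.22, and lys1 differed by 0.55 (SE 0.47, limma adjusted p = 0.524). The level of pro3 was 11.42 and 11.99 on the pst3 repressed arrays, against a lowest of 10.74, a median of 11.73 and a highest of 11.99 in wild type. Its groups overlapped, with a difference of 0.14 (SE 0.42, limma adjusted p = 0.878).

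Against each wild-type print alone, leu2 and hpt1 were again lower. Set against replicates 1 to 5, leu2 differed by -4.24 (SE 0.55) and hpt1 by -3.60 (SE 0.44), where 15.9% of all genes were called in either direction. Set against replicates 6 to 8, leu2 differed by -3.06 (SE 0.54), hpt1 by -3.90 (SE 0.60) and his3 by 1.49 (SE 0.48, limma adjusted p = 0.0419), where 18.1% were called. The leu2 difference was larger in size against replicates 1 to 5, and that of hpt1 against replicates 6 to 8. With the print as a random block, leu2 (-3.72, limma adjusted p = 0.0127) and hpt1 (-3.73, limma adjusted p = 0.00495) stayed past the threshold, though this cannot remove an effect of the pst3 repressed print itself.

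Between the wild-type prints, replicates 6 to 8 against replicates 1 to 5, none of the 10 members was called, while 10.7% of all genes were. Their differences ran from -1.18 for leu2 to 1.33 for his7. The leu2 values were 12.57, 11.91 and 12.10 on replicates 6, 7 and 8, all below replicates 1 to 5, whose levels were 14.36, 13.22, 13.46, 13.14 and 12.71. This difference of leu2 within wild type (-1.18, SE 0.40, limma adjusted p = 0.0818) was smaller in size than each of its differences between pst3 repressed and wild-type arrays. On the 7 wild-type arrays with 2 channels, the gap between channels of the same array had medians from 0.05 for his3 to 0.50 for ura4, against 0.20 over all genes.

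**Figure D2:**
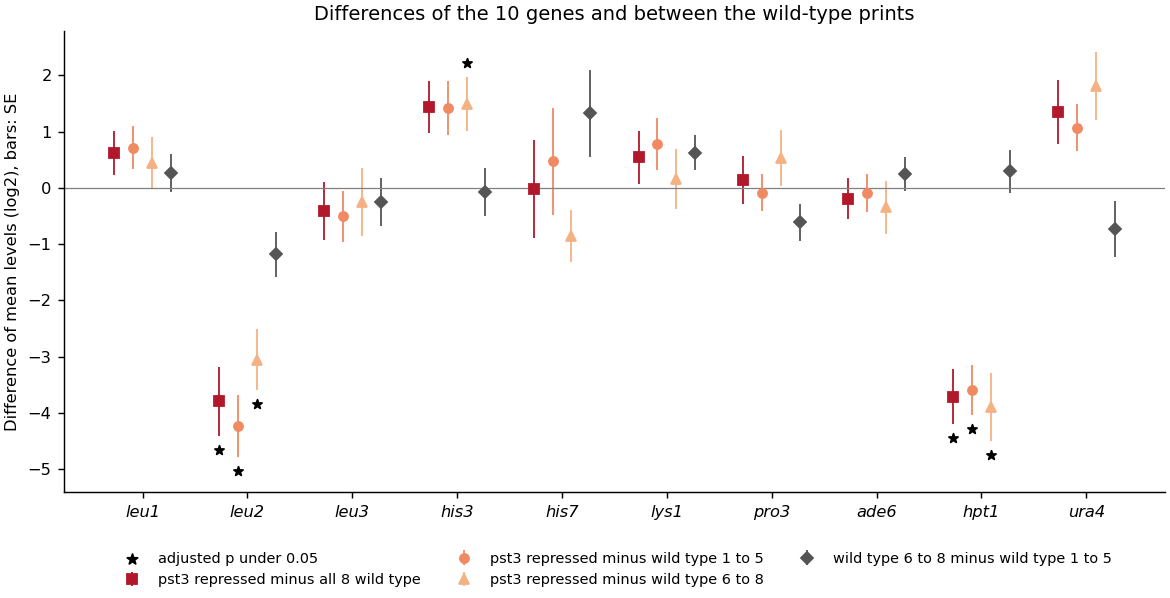
Differences of mean log2 levels (y axis, bars are SE) of the 10 genes between the arrays labelled pst3 repressed and all wild-type arrays, wild-type replicates 1 to 5 or 6 to 8, and between the wild-type prints (diamonds). Stars mark a limma adjusted p under 0.05, which leu2 and hpt1 reach in each comparison with pst3 repressed arrays and his3 in 1.

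Genes taken from lists of amino acid and nucleotide metabolism and amino acid transport are given beside the members. Some lists hold members and their pathways, and others hold no member. Of 110 listed genes 91 were tested, members included, and 10 were higher and 6 lower on the arrays labelled pst3 repressed. Over all genes tested 4.57% were called higher and 4.9% lower. The median difference was 0.41 for the listed genes and -0.03 over all genes. The lists were chosen with earlier results of these data known, so these shares cannot test for an excess among listed genes. Without the members, 10 of 81 were higher and 4 lower. The highest was gdh2, the NAD-dependent glutamate dehydrogenase that releases ammonium, at 13.21 and 12.78 on the pst3 repressed arrays, against a lowest of 7.80, a median of 8.53 and a highest of 9.64 in wild type. Its difference of 4.32 (SE 0.47, limma adjusted p = 0.000171) was larger than the whole wild-type range.

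In the leucine, isoleucine and valine list, ilv3, dihydroxy-acid dehydratase, was higher by 1.96 (limma adjusted p = 0.0153) and leu2 was the 1 lower gene of 8 tested. The lysine list held 2 higher genes of 7, lys3, saccharopine dehydrogenase, at 1.62 (limma adjusted p = 0.0476), and lys12, homoisocitrate dehydrogenase, at 1.61. The lys3 call held in 6 of 22 settings, the one reported included, and with median centring lys3 was at 0.80 (limma adjusted p = 0.499). In the histidine list 1 of 7 was higher, his4 (spbc887.20c), by 2.15 (SE 0.40, limma adjusted p = 0.00619). In the proline and arginine list 1 of 9 was higher, arg12, argininosuccinate synthase, by 2.36 (SE 0.45, limma adjusted p = 0.00695).

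The list of glutamate, serine, threonine and related genes held, beside gdh2, the higher hom3 (1.61), the aspartate kinase at the start of threonine and methionine synthesis, and the lower ser2 (-2.09), phosphoserine phosphatase, among 13 tested. Among 10 sulfur amino acid genes, met9, methylenetetrahydrofolate reductase, was lower, with a log2 difference of -1.49 (limma adjusted p = 0.0343). Of 6 tryptophan and other aromatic amino acid genes none was called, and trp2, tryptophan synthase, had the smallest p, with 1.63 (SE 0.61, limma adjusted p = 0.113).

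The purine list held 3 lower genes and 1 higher of 13. Beside hpt1, the lower ones were apt1, adenine phosphoribosyltransferase and likewise a salvage enzyme, at -2.33 (SE 0.45, limma adjusted p = 0.00687), and gua1, the IMP dehydrogenase of guanine nucleotide synthesis, at -1.53 (SE 0.38, limma adjusted p = 0.0242). The higher one was ade2, adenylosuccinate synthetase, at 2.30 (SE 0.41, limma adjusted p = 0.00468). The apt1 levels were 11.00 and 10.89 on the pst3 repressed arrays, against a lowest of 12.20 and a highest of 13.87 in wild type, so its groups did not overlap.

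Of 10 pyrimidine genes, urg1, known for its induction by uracil, was higher by 2.93 (SE 0.54, limma adjusted p = 0.00619), and of 8 genes of amino acid uptake and vacuolar transport, fnx2, a vacuolar amino acid transporter, was higher by 1.87 (limma adjusted p = 0.0150). Without pst3 repressed replicate 1 only gdh2 of the 14 called genes outside the 10 members passed, without replicate 2 arg12, gdh2 and his4 did, under a random block for the print ade2, apt1, arg12, gdh2, his4 and urg1 did, and with median centring those 6 with gua1 and ser2 did. All 14 kept their direction in each of these 4 settings.

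**Figure D3:**
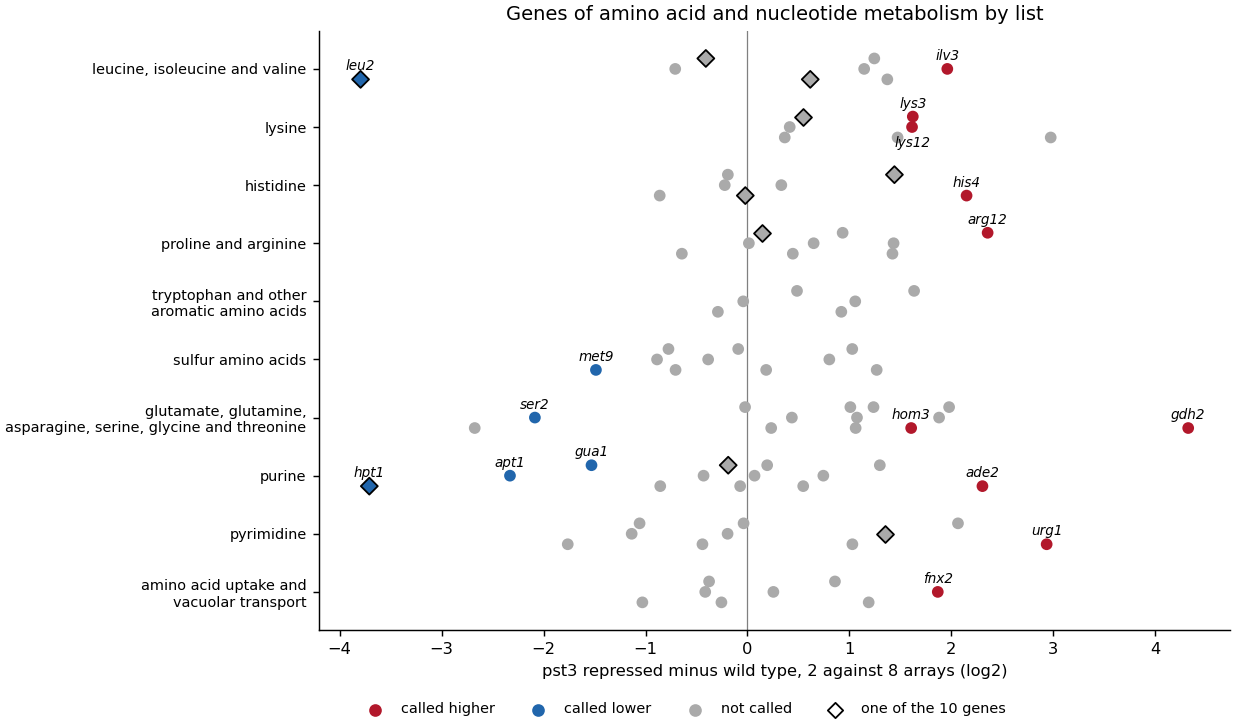
Differences (x axis, log2, pst3 repressed minus wild type, 2 against 8 arrays) of 91 genes in 10 lists of amino acid and nucleotide metabolism (rows). Diamonds are the 10 members, and named points were called at a limma adjusted p under 0.05, red for higher and blue for lower. The named points range from -3.80 for leu2 to 4.32 for gdh2.

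The Pst3-GFP arrays asked where tagged Pst3 lay relative to a reference, and of the 9 regions named for members only that of pro3 was called. The values are log2 ratios of the deposited signal to the authors' reference intensity, centred on each array's median, and 1.7% of all 4941 regions were called in either direction. The pro3 region had ratios of 4.87 and 4.40 on the 2 arrays, with a mean of 4.63 (SE 0.84, limma adjusted p = 9.64e-05, n = 2). All 9 member regions had this same SE, also that of lys1, whose ratios were -2.10 and 1.46. The SE and p-value of a region thus rest on a spread pooled over regions, not on that of its own 2 arrays. Its reference was 27.5, against a median of 665 over all regions, and only 13 regions had a lower one. The 47 regions called higher had a median reference of 50.8, below that of all regions.

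The pro3 signals themselves were ordinary on 1 array and within background on the other. On replicate 1 its spots gave 1264 and 776 over backgrounds of 21 and 12.5, beside an array median signal of 816. On replicate 2 they gave 1480 and 1580 over local backgrounds of 2551 and 1849, so the net signal was -670. With the local background subtracted the mean ratio of pro3 was 0.47 (limma adjusted p = 0.957) and 0 regions were called by limma, with 302 at an unadjusted p under 0.05. With the second spot set alone it was 4.48 and did not pass (limma adjusted p = 0.235). The pro3 region passed with normexp background correction (4.08, limma adjusted p = 1.58e-13), where 703 regions were called. With the first spot set alone it passed too (4.78, limma adjusted p = 0.0202).

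None of the 3 regions of leucine genes passed with the main settings. The leu3 region had ratios of -3.89 and -1.49, with a mean of -2.69 (SE 0.84, limma adjusted p = 0.0709, n = 2), lower than all but 0.891% of regions. It passed with normexp background correction (-1.85, limma adjusted p = 0.00318), where 703 of 4941 regions were called, against 84 with the main settings. It also passed with the dimmest regions left out (-2.54, limma adjusted p = 0.0463). Its spot of the second set carried a flag on both arrays. On replicate 2 neither leu3 spot exceeded the 95th percentile of net signal of missing spots (725). The leu2 region had ratios of 0.06 and 0.77 and the leu1 region -1.22 and -0.70, and neither passed.

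For the other regions the 2 arrays often differed in sign. The lys1 region had -2.10 on replicate 1 and 1.46 on replicate 2, that of ade6 1.16 and -1.32, and that of ura4 -0.88 and 0.65. The his7 region had 0.88 and 0.51, and the his3 region -0.71 and -0.54. None of these 5 passed, with limma adjusted p from 0.939 for his7 to 1.00 for ura4 and ade6. On replicate 2, 3 of the 9 regions, those of leu2, ura4 and his7, had a spot above the 95th percentile of net signal of missing spots (725), while on replicate 1 all 9 exceeded theirs (4) on every spot.

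**Figure D4:**
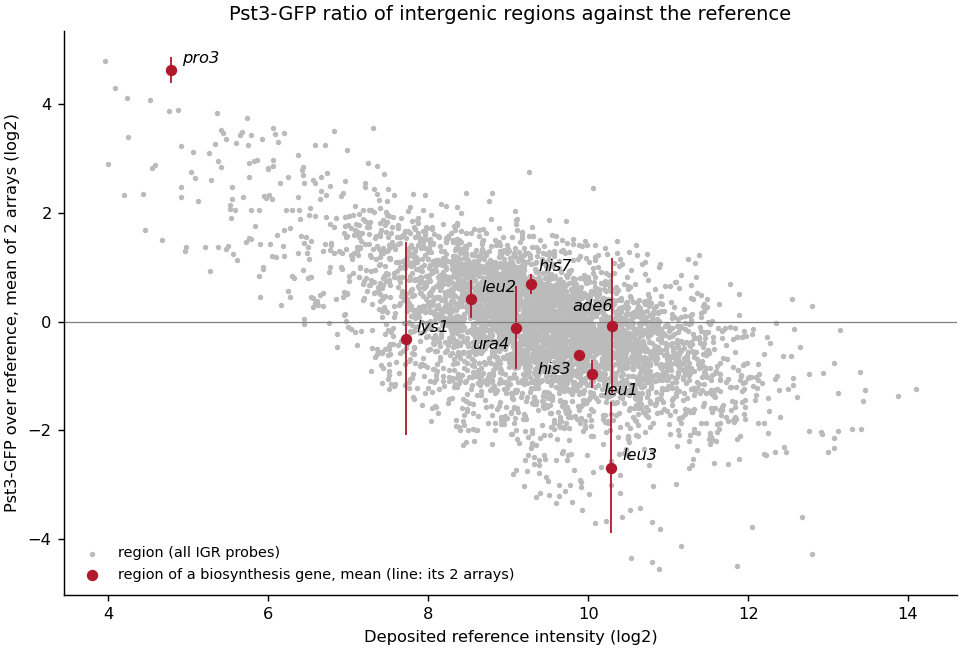
Mean log2 ratio of Pst3-GFP signal to reference over 2 arrays (y axis) against the log2 of the deposited reference intensity (x axis) for all regions in grey and the 9 regions of members in red, with a line joining the 2 arrays. The ratio holds the reference in its denominator, so a downward slope is built in. The pro3 region stands at 4.63 at the low end of the reference, and that of leu3 at -2.69.

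In the beads experiment, sample 1 and sample 2 carried the same spot flags on 100% of probes, so they are not counted as replicates. A probe is counted here where all its spots exceeded, in net signal, the 95th percentile of missing and empty ones. On IGR probes of sample 1 this held for 5 of 9 members and 67.9% of all regions, with his7 at 998 and pro3 at 847 over a limit of 14.7. On sample 2 it held for 1 of 9, pro3 at 477 over a limit of 193, and for 6.6% of all regions. On ORF probes of sample 1, 9 of 10 members and 80.2% of all probes exceeded the limit of 16.3. On sample 2, 1 of 10 members, ura4 at 366, and 8.7% of all probes exceeded the limit of 223, and leu3 was at 3397 on sample 1 and -403 on sample 2. Which DNA each deposited channel holds was not given, so no ratio between samples 1 and 2 was made.

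On the H3 slides the members were above the same kind of limit mainly in wild type, as were probes in general. On IGR probes, 0 of 9 members exceeded it in hst2D, 0 of 9 in hst4D and 6 of 9 in wild type, against 0.648%, 1.17% and 31.8% of all regions. On ORF probes 0 of 10 did in hst2D, 1 of 10 in hst4D, pro3 at 673, and 5 of 10 in wild type, against 1.94%, 2.52% and 33.8% of all probes. Medians over the members on ORF probes were 156 in hst2D, 111 in hst4D and 566 in wild type, beside 126, 127 and 367 over all probes, so the wild-type slide was the brightest over all probes too.

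On IGR probes of wild type lys1 gave 1566 and pro3 gave 151, with spots at 65 and 237, against a limit of 389. On ORF probes of wild type pro3 gave 1598 and leu2 gave 1255, against a limit of 368, and leu1 was within background at 77.8. Net signals of different probes have no common scale, so no order among the genes is given. The labels of the hst2D and hst4D slides name an input and an H3 precipitate, and which of these the deposited channel holds is not stated. Labels of the wild-type slides also name both, in the reverse order, so the slides of the strains may not hold the same kind of DNA. Of wild-type H3 spots 96.1% on IGR and 83.2% on ORF probes carried a flag. With 1 slide per strain and probe set there is no test of any difference between strains.

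**Figure D5:**
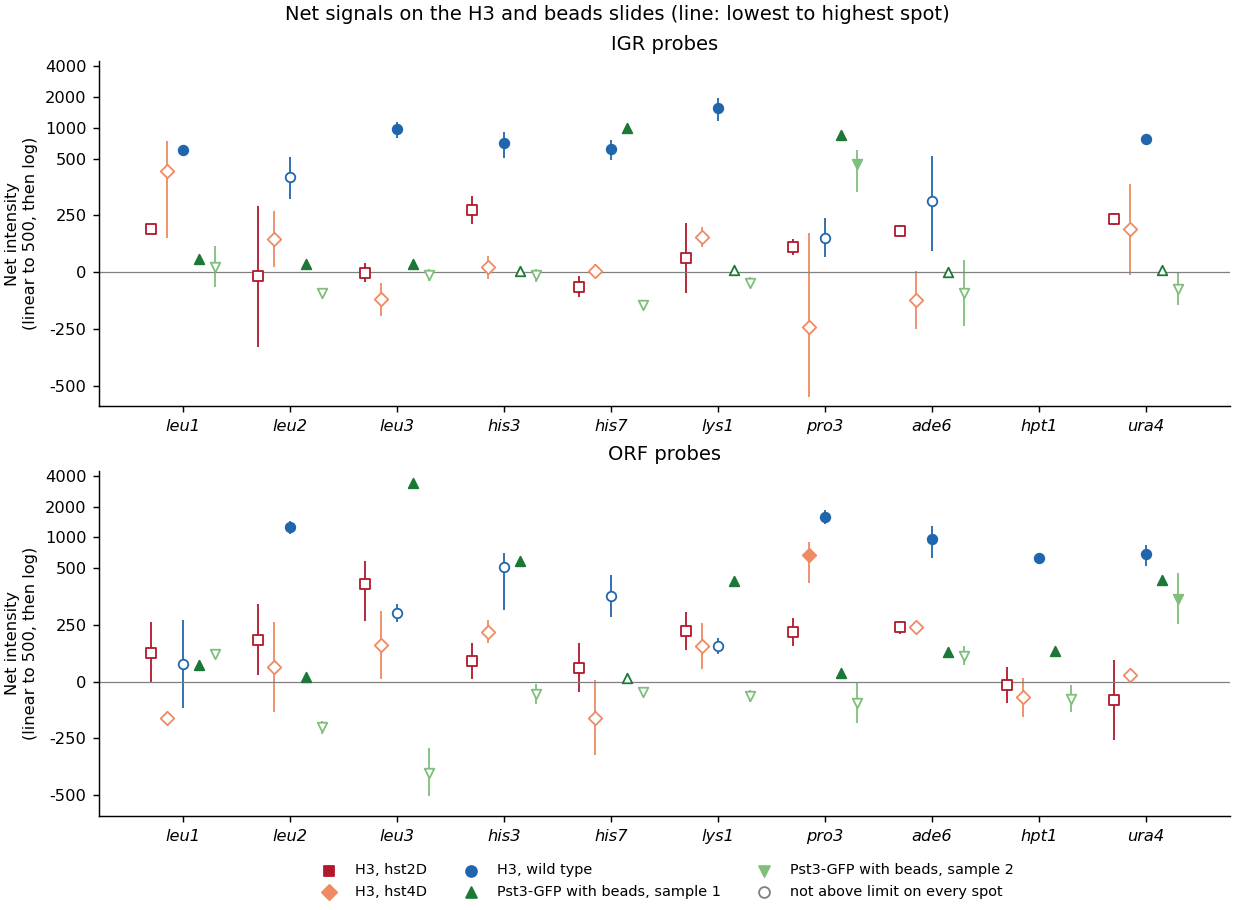
Net intensity (y axis, linear near 0 and logarithmic beyond) of the 10 genes on IGR probes (top) and ORF probes (bottom) of the H3 slides of hst2D, hst4D and wild type and of the 2 samples with beads. Lines run from the lowest to the highest spot, and filled symbols exceeded the 95th percentile of missing and empty spots on every spot. Filled circles (wild-type H3) number 6 on IGR and 5 on ORF probes.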

How the data were processed

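RNA or immunoprecipitated DNA was hybridised to spotted arrays, whose deposited scanner files hold, per the file headers, the median signal intensity of a spot in 1 channel beside the intensity around the spot. Labels name published protocols only, and of the scanner, software and genome build the sources used here give nothing. A reference intensity per probe, made by the authors, stands in the chromatin files. The authors' deposited value tables hold log2 values whose rows carry numbers without probe names, so they were not used. No column of per-sample values was left unmapped. The 10 genes and the pathway lists were chosen with earlier results of these data known.

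Each array labelled pst3 repressed has 1 deposited channel, Cy5 for replicate 1 and Cy3 for replicate 2, which was taken as RNA of that strain. limma's normexp correction with an offset of 50 was applied, except where at least 90% of a channel's backgrounds were 0. Channels were quantile normalized, and spots and channels of an array averaged to log2 levels. On the 7 wild-type arrays with 2 channels, both were taken as wild-type RNA. The spot sets of these arrays were assigned to a channel by closeness of median signal and median background, not by a label. limma's lmFit and eBayes were run over 4527 genes with Benjamini-Hochberg adjustment at 0.05. Of 4716 genes on all arrays 189 with exchanged names were left out, a choice made after seeing the data. On the pst3 repressed print, levels of the 192 names followed those of the names 4 blocks on or 4 blocks back, the blocks being paired. Across genes, r was 0.80 and 0.72 for parts of this set, against -0.19 and 0.18 for their own names. Genes named beside the members were those called in a list, or the one with the smallest p where none was.

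Pst3-GFP signals were divided by the reference, log2 transformed, centred on the median and fitted with limma over 2 arrays, the deposited channel being taken as the immunoprecipitate. H3 and beads slides were not tested. Alternatives were other background corrections, median centring, leaving out dim probes, single spot sets, each array left out, single wild-type prints, the print as a random block and the title code as a block. Analyses used R 4.3.3, limma 3.58.1 and Python 3.11.15. The number of arrays limits the precision.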

Additional observations from a re-analysis of the deposited data

Results flagged for a closer look

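In 4 of the 10 genes 1 of the 8 wild-type arrays stood apart from the rest, by a gap to its nearest neighbour that exceeded Dixon's critical share of the group's whole range. Such a gap was present in 13.1% of all genes tested, and chance marks about 1 in 20 groups. The leu1 level of wild-type replicate 1, from 1 spot, was 12.20, with the nearest array at 12.99. The ura4 level of replicate 8 was 8.92, with the nearest at 10.33. The his7 level of replicate 3 was 8.85, with the nearest at 11.85, and all its spots there were flagged in the deposited file. The hpt1 level of replicate 7 was 12.90, with the nearest at 11.98. The 4 arrays were different ones.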

How the results depend on the processing

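Of the called members, hpt1 passed in all 21 alternatives of the expression comparison and leu2 in 20, the exception being that without pst3 repressed replicate 1 (-2.98). With background subtracted hpt1 was at -5.47. With 1 array left out at a time leu2 ran from -4.61 to -2.98, hpt1 from -4.53 to -2.89, leu3 from -1.18 to 0.365, ade6 from -0.444 to 0.0665, his7 from -0.498 to 0.132, lys1 from -0.241 to 1.33 and pro3 from -0.14 to 0.429. Uncalled members also changed sign elsewhere, his7 with background subtracted (0.0353), with no background correction (0.0403) and against wild-type replicates 1 to 5 (0.477), pro3 against replicates 1 to 5 (-0.0848), and ade6 with flagged spots left out and median centring (0.168). The count of genes called, 429, was 202 with median centring, 720 and 818 against wild-type replicates 1 to 5 and 6 to 8, 156 with the print as a random block, and 45 to 539 with 1 array left out, the lowest without pst3 repressed replicate 1 and 84 without replicate 2. Between wild-type prints 483 genes became 282 with background subtracted, 223 with median centring, 73 with the title code as a block (added after seeing the data) and 139 to 678 with 1 array left out. With median centring leu2 passed there (-1.65, limma adjusted p = 0.0289), and leu1 (-0.175), ade6 (-0.344) and hpt1 (-0.213) changed sign. With 1 array left out, leu3 ran there from -0.788 to 0.14, his3 from -0.289 to 0.18 and hpt1 from -0.13 to 0.7. For Pst3-GFP 84 regions became 703 with normexp, 0 with background subtracted, 48 without the dimmest regions, 10 with the first spot set and 0 with the second. There ura4 changed sign with normexp (0.14), background subtracted (0.441) and dim regions left out (0.0329), ade6 with background subtracted (0.041) and dim regions left out (0.0662), and lys1 with normexp (0.627). The cause of these changes was not tested. The authors' value tables were not run because their rows are unnamed. Leaving out 1 of the 2 pst3 repressed arrays assumes that the other varies like wild type. Replicate numbers were given in accession order and pair no pst3 repressed array with a wild-type array, so that comparison was not paired. Between the wild-type prints only the title codes link arrays, and they were used as a block. For the 3 pairs of wild-type arrays of different prints that share a title code, deviations from the print mean had r = -0.0597, -0.00197 and 0.0114 across genes. Pairs with unlike codes had r from -0.0506 to 0.115. Whether arrays of the same code share RNA was not tested. With the code as a block limma called 0 of the 10 members between prints (0 at an unadjusted p under 0.05). Without it limma also called 0 (1 at an unadjusted p under 0.05, leu2). Signals within the range of empty spots on pst3 repressed replicate 1 limit leu2 and hpt1. On replicate 2 hpt1 lay above empty spots but below the Escherichia coli control spots, which limits it further.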
